A study of Mus musculus with 23 samples.

Results

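The hippocampus of wild-type (WT) mice kept under hypoxia was compared with that of WT mice in normal air (normoxia). The members were the 12 libraries of these groups, 6 in each, out of 23 RNA-seq libraries in the series, and they were assigned by the genotype and condition labels. The comparison was described across the 17788 genes that passed a filter on low counts, out of 52636 in the count tables. By the series title the exposure was chronic and intermittent, as in sleep apnoea, where oxygen falls and returns many times, and the wider study was of tau disease. The other 11 libraries came from mice carrying the P301S form of human tau, a mutation that causes inherited frontotemporal dementia, with 5 in normoxia and 6 in hypoxia. They shared no library with the WT groups.

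Per the labels, the strain background of all mice was mixed (C57Bl6 and Balbc) and the RNA came from whole, flash-frozen hippocampus. The WT groups carried different condition labels and also different numbers in their titles, described below. Age, sex, oxygen level, length of exposure, time of day at collection and the promoter of the P301S transgene: none of these is stated in the sources used here. Whether every library is from its own animal is not stated, and p-values then cover only the spread among these libraries, which may be technical.

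Cells sense low oxygen through the hypoxia-inducible factors (HIF), whose alpha subunits are destroyed when oxygen is present and otherwise switch on genes of glycolysis, blood vessel growth and iron uptake. In the hippocampus, genes of several other systems are known to follow the state of the animal. Immediate early genes are transcribed within minutes of neuronal firing, clock genes cycle over the day, and chaperones of the endoplasmic reticulum (ER) follow the load of secretory proteins.

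Total counts per library ran from 22830970 to 25820145 in WT normoxia and from 19134422 to 24912502 in WT hypoxia. Levels are given as CPM, the usual depth-scaled counts, with library totals adjusted by TMM factors, and comparisons as log2 fold changes of hypoxia over normoxia with their standard error (SE). Markers of the choroid plexus, the tissue in the ventricle beside the hippocampus, set 6 of the 23 libraries apart. These were WT normoxia replicate 4, WT hypoxia replicates 1, 4 and 5, and 2 of P301S hypoxia. Ttr, the transthyretin gene of choroid plexus epithelium, was at 68.4 CPM in WT normoxia replicate 4 and between 1748 and 3176 CPM in the other WT normoxia libraries, and it was at 58.9, 68.7 and 110 CPM in WT hypoxia replicates 5, 4 and 1. The mean score of the markers did not separate the WT groups (0.80 ± 1.80 in normoxia and −0.67 ± 2.0 in hypoxia, SD, n = 6 each, exact two-sided permutation p = 0.182, where 0.00216 is the smallest possible). Results are therefore also given without these 6 libraries, which leaves 5 WT normoxia and 3 WT hypoxia libraries. Title numbers follow the groups as well: WT normoxia replicates 1 to 5 carry 66 and replicate 6 carries 37, while in WT hypoxia 31 marks replicates 1 to 4 and 32 marks the other two. Whatever that number stands for cannot be told apart from hypoxia. Hippocampal markers were present throughout, with summed levels of 957 to 1300.1 CPM for 14 dentate granule cell markers, 933 to 1263 CPM for 11 CA1 markers and 1567 to 2089 CPM for 14 CA2 and CA3 markers over the 12 libraries. The mouse tau gene Mapt ran from 648 to 741 CPM (median 670) in normoxia and from 642 to 735 CPM (median 683) in hypoxia (log2 fold change 0.02, SE 0.0519, edgeR adjusted p = 0.935).

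Few genes passed the test for hypoxia in WT hippocampus. With edgeR's quasi-likelihood test and Benjamini-Hochberg adjustment over all genes, 13 genes had an adjusted p below 0.05 and were called, which is 0.0731% of those tested. Of these, 5 rose (0.0281%) and 8 fell (0.045%). The clock genes Nr1d1 and Dbp rose, along with Rasal2, Nell1 and Mindy4b-ps. The genes that fell were the immediate early gene Fosb, the microRNA host gene 1700016P03Rik, Akr1e1, Atoh8, Arhgef19, Ccdc30, Tjap1 and the long noncoding RNA Gm35552. Rose and fell are used below only for called genes, and other genes are given by their values.

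**Figure D1:**
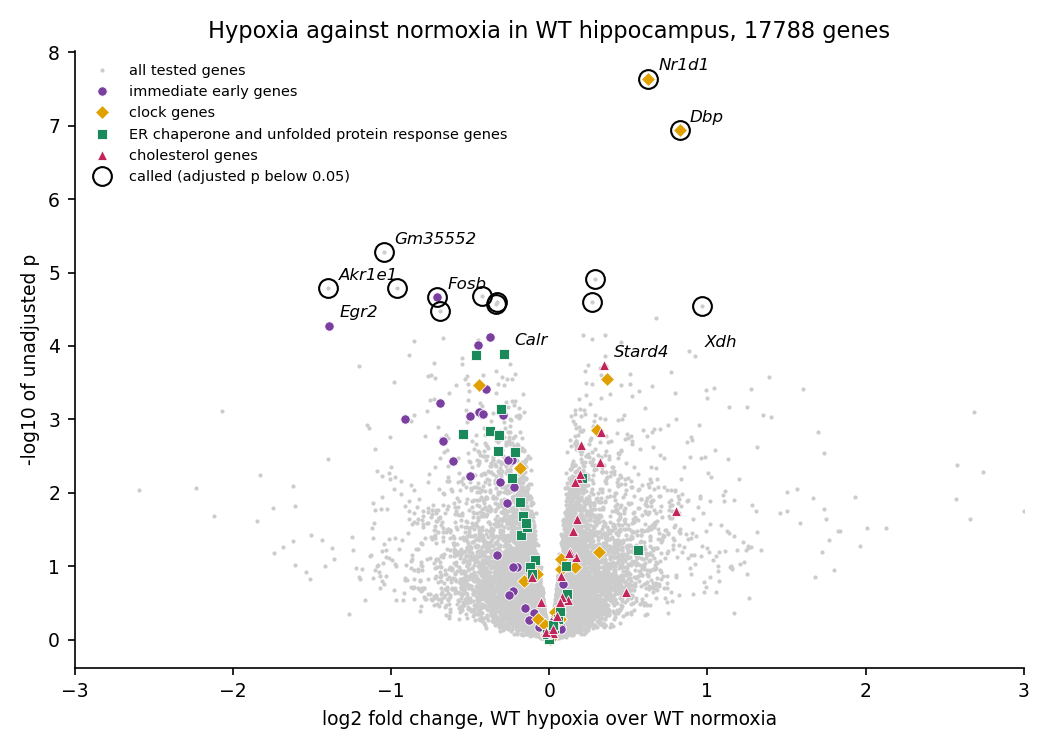
Each point is 1 of the 17788 tested genes, with its log2 fold change (WT hypoxia over WT normoxia) on the x axis and −log10 of its unadjusted p on the y axis. Coloured symbols mark 4 gene lists, black rings mark the 13 called genes, and 6 genes lie outside the x range of ±3.

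The median absolute log2 fold change was 0.69 among the called genes and 0.0894 over all genes. An unadjusted p below 0.05 was reached by 2058 genes (11.6%), 1037 of them higher (5.83%) and 1021 lower (5.74%). The 6 hypoxia and 6 normoxia libraries did not overlap for 123 genes (0.691%), of which 53 were higher (0.298%) and 70 lower (0.394%). Among the called genes, 11 of 13 had groups that did not overlap. A log2 fold change below 0 was found for 48.6% of all genes. These shares over all genes are to be set beside every count of list members below.

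The number of calls depended on single libraries. It was 2 without WT normoxia replicate 4 or 5 or without WT hypoxia replicate 3, 5 or 6, 4 without WT hypoxia replicate 4, 5 without WT normoxia replicate 3, 7 without WT hypoxia replicate 1, 20 without WT normoxia replicate 1 and 29 without WT hypoxia replicate 2. Without the 6 libraries lowest in choroid plexus markers edgeR called 0 genes, while 1013 had an unadjusted p below 0.05. Over all libraries DESeq2 called 151 of the 17788 genes, among them all 13, and limma voom called 10, all among the 13. These totals are to be set beside the list members called by each tool below.

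**Figure D2:**
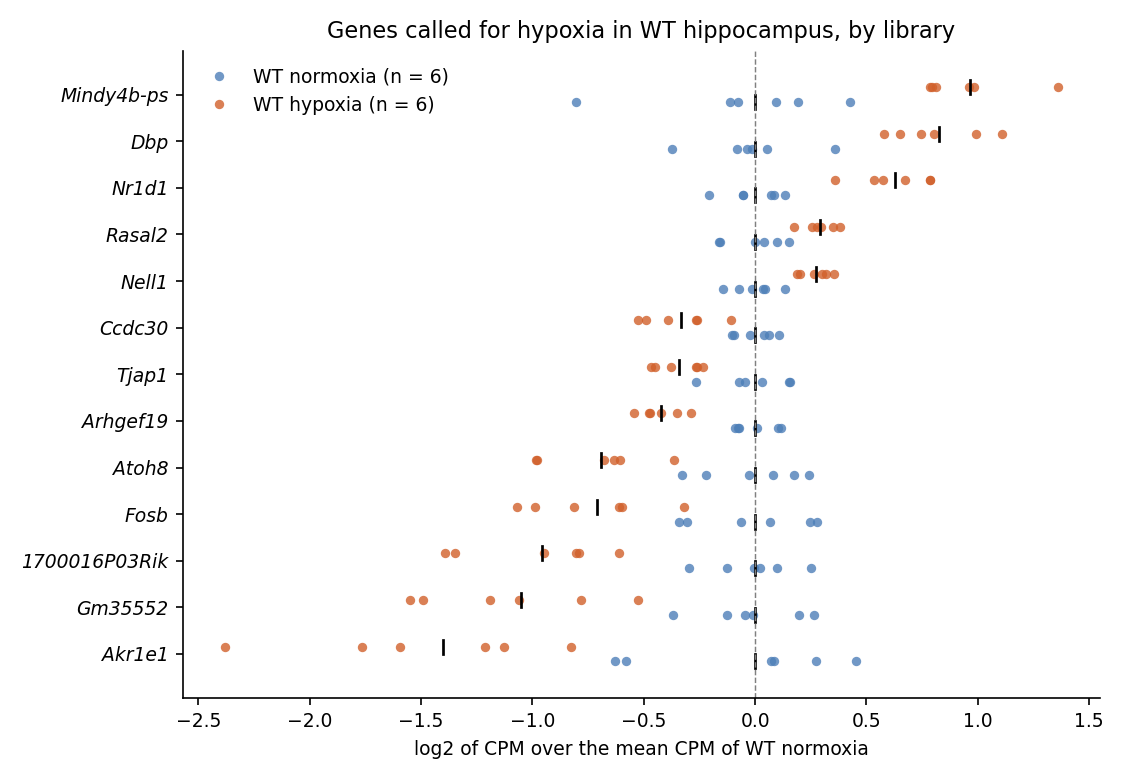
For the 13 called genes, each point is 1 library, placed by the log2 of its CPM over the mean CPM of WT normoxia, and black bars mark group means. Hypoxia libraries lie apart from normoxia libraries for all genes drawn except Fosb and Tjap1, whose ranges overlap.

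The genes with the lowest p belong to the circadian clock. Nr1d1 encodes REV-ERB alpha, a nuclear receptor that represses the clock activator Arntl (BMAL1). Nr1d1 levels ran from 61.4 to 77.7 CPM (median 71.5) in normoxia and from 90.8 to 122 CPM (median 109) in hypoxia. Every hypoxia library was above every normoxia library, and Nr1d1 (ENSMUSG00000020889, chr11:98767932-98775333, GRCm38) rose by 0.63 (SE 0.0764, edgeR adjusted p = 0.000409). Dbp (ENSMUSG00000059824, chr7:45705088-45710203), a transcription factor driven directly by CLOCK and BMAL1, ran from 19.4 to 32.3 CPM (median 24.7) in normoxia and from 37.5 to 54.2 CPM (median 43) in hypoxia. Again the groups did not overlap, and Dbp rose by 0.82 (SE 0.11, adjusted p = 0.00102). Both stayed called in all 12 fits that left out 1 WT library and in 10 of 11 other alternatives. Without the 6 libraries low in choroid plexus markers the log2 fold change was 0.61 for Nr1d1 (adjusted p = 0.147) and 0.74 for Dbp (adjusted p = 0.313).

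Of 20 measured clock genes, 4 had an unadjusted p below 0.05 with a higher level and 2 with a lower level, and the median log2 fold change was 0.06 against 0.00 over all genes. Nr1d2, which encodes the related repressor REV-ERB beta, ran from 81.7 to 120 CPM (median 91.9) in normoxia and from 115 to 134 CPM (median 124) in hypoxia. The ranges overlapped at their edges (log2 fold change 0.37, SE 0.0858, adjusted p = 0.0893). Nfil3, a repressor that competes with DBP for the same DNA sites, had a log2 fold change of −0.44 (SE 0.106, adjusted p = 0.0917), opposite in sign to Dbp. Arntl, the gene that REV-ERB proteins repress, had −0.18 (SE 0.0587, adjusted p = 0.204), and the feedback repressor gene Bhlhe41 had 0.30 (SE 0.0827, adjusted p = 0.146). Per2, which belongs to the negative limb of the loop, ran from 54.3 to 76.2 CPM (median 62) in normoxia and from 57.6 to 71.4 CPM (median 64.9) in hypoxia (log2 fold change 0.06, SE 0.0762, adjusted p = 0.791). In P301S hippocampus Nr1d1 rose by 0.41 (adjusted p = 0.0272) and Dbp by 0.71 (adjusted p = 0.0109), and the difference of the effects between the genotypes was not called (unadjusted p = 0.059 and 0.477). Arntl and Per2 lay outside the rule for naming genes and were picked after their values were seen.

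The promoter of Nr1d1 is shown because this gene had the lowest p of all. The 250 bases before its RefSeq start (GRCm38.p6) hold 1 copy of the core of the hypoxia response element, ACGTGC, printed in capitals and lying 27 to 22 bases before the start.
Nr1d1 chr11:98775378-98775627 minus strand: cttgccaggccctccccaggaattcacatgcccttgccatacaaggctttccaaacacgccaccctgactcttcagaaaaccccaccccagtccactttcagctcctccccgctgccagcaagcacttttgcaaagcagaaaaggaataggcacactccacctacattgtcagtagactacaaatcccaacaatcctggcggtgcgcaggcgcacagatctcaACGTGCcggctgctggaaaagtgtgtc
That core was found on either strand in the 250 upstream bases of 963 of 12571 tested genes with a RefSeq promoter (7.66%), and of 2 of the 11 called genes with one (18.2%). It overlaps the clock factors' E-box CACGTG in 430 of those 963 genes. The printed Nr1d1 window holds no E-box. The 250 bases before a RefSeq start of Dbp, the other called clock gene, hold neither the core nor an E-box. The match describes the letters of the Nr1d1 window and nothing was measured on binding.

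Immediate early genes had lower levels in WT hypoxia, and Fosb was the member that was called. FOSB is an AP-1 transcription factor whose transcript follows neuronal firing. Fosb (ENSMUSG00000003545, chr7:19302696-19310051) ran from 8.47 to 13 CPM (median 10.8) in normoxia and from 5.12 to 8.61 CPM (median 6.58) in hypoxia. The ranges overlapped at 1 edge, and Fosb fell by 0.71 (SE 0.134, adjusted p = 0.0428). Its call was kept in 9 of 11 alternatives and in 3 of 12 fits that left out 1 library.

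Of 37 measured immediate early genes, 31 had a log2 fold change below 0, 19 had an unadjusted p below 0.05 with a lower level and 0 with a higher level, and 3 had lower groups that did not overlap. Over all genes these shares were 48.6% below 0, 5.74% and 0.394%. The median log2 fold change of the list was −0.25. edgeR called 1 member, limma voom 1 and DESeq2 12, all lower. Over all 17788 genes these tools called 13, 10 and 151. With those 6 libraries left out 20 members were lower at an unadjusted p below 0.05, with a median of −0.29, and over all alternatives the count ran from 19 to 21. In P301S the median was −0.13, with 16 of 37 members above 0, 3 higher and 13 lower at an unadjusted p below 0.05 (over all genes 6.84% and 6.93%). The difference between the genotypes reached that p in edgeR for 13 members, 11 of them with the higher effect in P301S, and 0 were called. Over all genes 4.36% had the higher and 5.07% the lower effect in P301S at that p.

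Among the transcription factors of the list, Egr2 ran from 2.46 to 5.91 CPM (median 3.29) in normoxia and from 0.88 to 1.92 CPM (median 1.37) in hypoxia. These groups did not overlap, and the log2 fold change was −1.39 (SE 0.282), just short of a call (adjusted p = 0.0627). Nr4a3, an orphan nuclear receptor gene, ran from 103 to 142 CPM (median 112) in normoxia and from 74.2 to 99.8 CPM (median 84.2) in hypoxia, again without overlap (log2 fold change −0.45, SE 0.0957, adjusted p = 0.0717). Fos ran from 11.2 to 17.8 CPM (median 13.8) in normoxia and from 4.64 to 15.2 CPM (median 6.61) in hypoxia. The highest Fos value in hypoxia was that of replicate 1, and the other 5 hypoxia libraries lay at or below 8.74 CPM (log2 fold change −0.91, SE 0.24, adjusted p = 0.124). Egr1 had a log2 fold change of −0.50 (SE 0.131, adjusted p = 0.122), Npas4, induced by calcium entry into neurons, −0.67 (SE 0.191, adjusted p = 0.16), Junb −0.44 (SE 0.115, adjusted p = 0.122) and Nr4a1 −0.42 (SE 0.109, adjusted p = 0.122). Of the synaptic effectors, Arc, which removes AMPA receptors from synapses, ran from 122 to 196 CPM (median 175) in normoxia and from 86.2 to 133 CPM (median 99.3) in hypoxia (log2 fold change −0.69, SE 0.171, adjusted p = 0.116). Homer1, a postsynaptic scaffold whose short form is the activity-induced one, ran from 120 to 148 CPM (median 130) in normoxia and from 86.6 to 117 CPM (median 103) in hypoxia (log2 fold change −0.38, SE 0.0787, adjusted p = 0.0682), and whole-gene counts do not separate its forms. Gadd45g, a stress and DNA repair gene of the same list, had −0.40 (SE 0.0966, adjusted p = 0.0979). Fos, Arc, Egr1, Npas4, Junb and Nr4a1 were picked after their values were seen.

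Promoter stretches of members that hold a cyclic AMP response element (CRE, TGACGTCA, bound by CREB) or a CArG box (bound by serum response factor) are shown because these are the textbook elements of activity-driven transcription. Each reads along its gene's strand with 30 bases on either side where the table allows, and the element is in capitals, first for 5 genes with a CRE and then for 2 with a CArG box.
Btg2 chr1:134079284-134079351 minus strand: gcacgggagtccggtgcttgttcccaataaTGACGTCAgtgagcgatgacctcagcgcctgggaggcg
Dusp1 chr17:26508578-26508645 minus strand: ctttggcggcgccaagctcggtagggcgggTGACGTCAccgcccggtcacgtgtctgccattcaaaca
Plk2 chr13:110394952-110395019 plus strand: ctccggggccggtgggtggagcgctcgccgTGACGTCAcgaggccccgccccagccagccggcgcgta
Arl4d chr11:101665485-101665540 plus strand: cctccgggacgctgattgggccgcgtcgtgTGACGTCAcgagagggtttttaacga
Maff chr15:79347461-79347519 plus strand: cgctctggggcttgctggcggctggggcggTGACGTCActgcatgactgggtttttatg
Egr2 chr10:67537464-67537533 plus strand: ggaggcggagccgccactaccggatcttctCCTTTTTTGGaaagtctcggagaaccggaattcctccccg
Dusp5 chr19:53529033-53529102 plus strand: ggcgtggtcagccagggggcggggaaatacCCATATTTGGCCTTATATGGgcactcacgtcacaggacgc
The CRE was present in 5 of 28 promoters of the list (17.9%) and in 347 of 12571 tested promoters (2.76%). The CArG box was present in 2 of 28 (7.14%) and in 177 of 12571 (1.41%), with 2 adjoining copies at Dusp5. Genes with these elements did not shift as a whole in WT. Of the 347 with a CRE, 14 were higher and 14 lower at an unadjusted edgeR p below 0.05 (median 0.01). Of the 177 with a CArG box, 10 were higher and 10 lower (median 0.02), beside 5.83% higher and 5.74% lower over all genes. Both strands were searched over 250 bases before the start, and hits of these elements did not overlap each other. The CRE overlapped an E-box in 2 of the tested promoters, and the CArG box overlapped none of the other elements searched. Of the 7 genes printed, Egr2 is the one with values given above, and the promoter of Fosb held neither element in this window.

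The noncoding gene 1700016P03Rik (ENSMUSG00000085609, chr11:75172560-75177633, plus strand) is the only one of the 13 called genes that holds a microRNA hairpin on its own strand. It contains Mir212 (chr11:75173388-75173478) and Mir132 (chr11:75173682-75173747), a pair known to be induced in neurons by CREB and to act on dendrites and synapses. The transcript ran from 12 to 17.6 CPM (median 14.9) in normoxia and from 5.63 to 9.67 CPM (median 8.06) in hypoxia. No hypoxia library reached the lowest normoxia library, and the gene fell by 0.96 (SE 0.177, adjusted p = 0.0428). In P301S it fell by 0.82 (adjusted p = 0.0485), with a difference between the genotypes of 0.14 (unadjusted p = 0.596). Its call was kept in 9 of 11 alternatives and in 3 of 12 fits without 1 library, and without the 6 libraries low in choroid plexus markers the value was −1.14 (adjusted p = 0.382). Other genes together cover 36.4% of its length, Ovca2 the most, and reads lying in those stretches are dropped from the counts.

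The mature microRNAs of this host gene are printed below (RefSeq, GRCm38.p6), with the seed, bases 2 to 8, in capitals.
mmu-miR-132-3p chr11:75173723-75173744 plus strand: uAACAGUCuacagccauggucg
mmu-miR-212-3p chr11:75173443-75173464 plus strand: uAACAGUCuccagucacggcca
mmu-miR-132-5p chr11:75173686-75173707 plus strand: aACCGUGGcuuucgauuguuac
mmu-miR-212-5p chr11:75173403-75173425 plus strand: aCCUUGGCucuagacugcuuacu
The 3p arms of both hairpins share the seed AACAGUC and are identical at 17 of 22 positions. The 5p arms have seeds of their own. The mature microRNAs were not measured: the hairpin genes had 0 counts over all 23 libraries, as they lie inside the host gene, and the values above are those of the host transcript.

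Of the other called genes, 3 rose. Rasal2 (chr1:157135182-157412595), which encodes a protein that switches off RAS, ran from 108 to 134 CPM (median 122) in normoxia and from 136 to 157 CPM (median 147) in hypoxia (log2 fold change 0.29, SE 0.0526, adjusted p = 0.0428). Nell1 (chr7:49974864-50866608), a secreted growth factor-like protein gene, ran from 40.7 to 49.3 CPM (median 45.3) and from 51.2 to 57.5 CPM (median 54.7), a rise of 0.27 (SE 0.0524, adjusted p = 0.0428). The groups did not overlap for either, though the shifts were small. Mindy4b-ps (chr3:58788407-58822311) rose by 0.96 at a very low level, from a range of 0.244 to 0.571 CPM to one of 0.733 to 1.09 CPM. Its symbol marks a pseudogene, while the annotation used here types it as protein-coding.

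Akr1e1 (ENSMUSG00000045410, chr13:4590750-4609174), which encodes an aldo-keto reductase, fell most. It ran from 14.3 to 30.3 CPM (median 23.4) in normoxia and from 4.26 to 12.5 CPM (median 8.46) in hypoxia, a fall of 1.40 (SE 0.252, adjusted p = 0.0428). The groups did not overlap in WT, but P301S libraries gave the opposite sign, between 6.03 and 14.6 CPM in normoxia and between 12 and 27.3 CPM in hypoxia (log2 fold change 0.62, adjusted p = 0.281). The difference between the genotypes was 2.02 (SE 0.36, adjusted p = 0.0407).

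Atoh8 (chr6:72206177-72235577), a helix-loop-helix transcription factor gene, ran from 5.75 to 8.53 CPM (median 7.35) in normoxia and from 3.65 to 5.62 CPM (median 4.59) in hypoxia, a fall of 0.69 (SE 0.135, adjusted p = 0.0458). Arhgef19 (chr4:141239499-141257564), an activator of RHOA, ran from 26.5 to 30.6 CPM (median 27.6) and from 19.4 to 23.2 CPM (median 20.7), a fall of 0.42 (SE 0.08, adjusted p = 0.0428). Neither gene's groups overlapped. Ccdc30 (chr4:119322893-119415521), a coiled-coil protein gene, fell by 0.33, Tjap1 (chr17:46257851-46283026), a tight junction associated protein gene, by 0.34, and the long noncoding RNA Gm35552 (chr10:47016652-47102832) by 1.04 from a median of 1.39 to one of 0.65 CPM. These 11 calls outside the clock genes were less stable than those of Nr1d1 and Dbp: each was kept in 5 to 9 of its alternatives and in 1 to 6 of 12 fits that left out 1 WT library. With the 6 libraries low in choroid plexus markers left out, some values lay nearer 0. These were Ccdc30 (−0.19), Akr1e1 (−1.08), Atoh8 (−0.52), Fosb (−0.60), Tjap1 (−0.29), Gm35552 (−0.90), Rasal2 (0.25) and Arhgef19 (−0.41). Values of Nell1 (0.33), Mindy4b-ps (1.11) and 1700016P03Rik (−1.14) lay farther from 0. The threshold separated Atoh8 from 1700121C08Rik, whose log2 fold change was 0.67 (adjusted p = 0.0523).

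In P301S, 12 of the 13 genes had the same direction, 7 of them with an unadjusted p below 0.05, and 5 were also called (Nr1d1, Dbp, Gm35552, Rasal2 and 1700016P03Rik). Of all genes, 13.8% had such a p in P301S in either direction. Hypoxia called 73 genes there (0.41%). Over all genes 55.9% had the same direction in both genotypes, and among the 2058 genes with an unadjusted p below 0.05 in WT 62.6% had. Over all genes the log2 fold changes correlated weakly (Pearson r = 0.0786 and Spearman rho = 0.126 across genes, which are not independent replicates).

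Many chaperones of the ER lumen had lower levels in WT hypoxia, and edgeR called none of them while DESeq2 called 4. Calr, which encodes the lectin chaperone calreticulin, ran from 357 to 430 CPM (median 394) in normoxia and from 298 to 336 CPM (median 323) in hypoxia. No hypoxia library reached the lowest normoxia library (log2 fold change −0.29, SE 0.0632, adjusted p = 0.0824). Hspa5 (BiP), the main ER chaperone, ran from 241 to 348 CPM (median 298) in normoxia and from 201 to 237 CPM (median 226) in hypoxia, also without overlap (log2 fold change −0.37, SE 0.103, adjusted p = 0.147). Its 6 hypoxia libraries had an SD of 13 CPM around a mean of 223, against 40.4 around 289 in normoxia.

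Of 28 measured genes of ER chaperones and the unfolded protein response, 14 had an unadjusted p below 0.05 with a lower level and 1 with a higher level, 19 had a log2 fold change below 0, and 2 had lower groups that did not overlap. Over all genes 5.74% were lower and 5.83% higher at that p, 48.6% were below 0 and 0.394% had lower groups without overlap. The median of the list was −0.13. edgeR and limma voom called 0 members and DESeq2 called 4, all lower, out of its 151 calls over all genes. When the same 6 libraries were left out 6 members were lower at an unadjusted p below 0.05 (median −0.10), and 12 were when that score entered the model as a covariate. Creld2, an ER stress-induced secretory factor, had a log2 fold change of −0.46 (SE 0.102, adjusted p = 0.0824), Pdia6, a disulfide isomerase, −0.30 (SE 0.078, adjusted p = 0.122), and Sdf2l1, a partner of BiP, −0.54 (SE 0.152, adjusted p = 0.15). Xbp1, the transcription factor spliced in the unfolded protein response, had −0.24 (SE 0.0795, adjusted p = 0.226), and Pdia4, another disulfide isomerase, −0.32 (SE 0.0888, adjusted p = 0.152). Manf, whose body is overlapped over 92.3% by at least 1 other gene and whose count is uncertain, had −0.32. Xbp1, Pdia4 and Manf were picked after their values were seen.

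Many members share a control sequence, the ER stress element, and the 8 promoter stretches that hold it are printed with the element in capitals to show it in its context. Its letters are CCAAT, then any 9 bases, then CCACG, searched on both strands, and Calr and Creld2 carry it on the opposite strand.
Hspa5 chr2:34771995-34772073 plus strand: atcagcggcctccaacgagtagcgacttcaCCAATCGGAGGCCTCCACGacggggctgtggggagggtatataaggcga
Calr chr8:84847045-84847123 minus strand: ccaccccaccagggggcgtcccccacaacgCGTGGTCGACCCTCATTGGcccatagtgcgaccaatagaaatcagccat
Pdia6 chr12:17266461-17266539 plus strand: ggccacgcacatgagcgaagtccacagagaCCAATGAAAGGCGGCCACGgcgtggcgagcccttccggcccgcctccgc
Creld2 chr15:88819490-88819568 plus strand: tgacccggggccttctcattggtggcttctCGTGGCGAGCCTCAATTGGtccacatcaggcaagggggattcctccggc
Hsp90b1 chr10:86705608-86705686 minus strand: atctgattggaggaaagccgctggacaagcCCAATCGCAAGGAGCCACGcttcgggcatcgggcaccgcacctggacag
Dnajc3 chr14:118937797-118937875 plus strand: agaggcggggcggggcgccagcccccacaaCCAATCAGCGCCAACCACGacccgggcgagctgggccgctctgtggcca
Canx chr11:50325770-50325848 minus strand: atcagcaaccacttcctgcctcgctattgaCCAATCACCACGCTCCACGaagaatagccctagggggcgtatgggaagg
Syvn1 chr19:6046502-6046575 plus strand: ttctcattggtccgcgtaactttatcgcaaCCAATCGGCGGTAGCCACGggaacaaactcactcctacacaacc
The element was found in 8 of the 24 promoters of the list (33.3%) and in 18 of 12571 tested promoters (0.143%), and it overlapped none of the other elements searched. In Hspa5 it lies 65 to 47 bases before the start, and Hsp90b1 has 2 copies, of which the farther from the start is shown. Of these 18 genes, the 8 printed all had a log2 fold change below 0 in WT, and 6 were lower at an unadjusted p below 0.05. Of the 10 outside the list, 7 were below 0, 0 were lower and 1 was higher at that p.

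In P301S mice the median of the ER list had the opposite sign, and the difference itself passed the test for 2 members. In P301S the median of the list was 0.13, with 25 of 28 members above 0, 9 higher and 0 lower at an unadjusted p below 0.05 (over all genes 6.84% and 6.93%). The difference of the hypoxia effect between the genotypes was called for 7 of 17788 genes (0.0394%), and Hspa5 and Calr were among them. For Hspa5 it was 0.81 (adjusted p = 0.0435), and its P301S libraries ran from 187 to 259 CPM (median 206) in normoxia and from 230 to 372 CPM (median 282) in hypoxia (log2 fold change 0.44, adjusted p = 0.0766). For Calr it was 0.53 (SE 0.0917, adjusted p = 0.0407). An unadjusted p below 0.05 for the difference was reached by 14 of the 28 members, all with the higher effect in P301S, against 4.36% of all genes with the higher and 5.07% with the lower effect in P301S. P301S normoxia had the lowest mean level of the list among the 4 groups (−0.19 ± 0.0483 relative to WT normoxia, log2, SD, n = 5), below WT hypoxia (−0.11 ± 0.0696, n = 6) and P301S hypoxia (−0.04 ± 0.0973, n = 6). The calls of this difference were not stable: 0 genes were called by edgeR without 13 of the 23 libraries in turn and without the 6 libraries low in choroid plexus markers, 13 genes without P301S normoxia replicate 1, 0 by limma voom and 52 by DESeq2, and 1678 genes (9.43%) had an unadjusted p below 0.05.

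**Figure D3:**
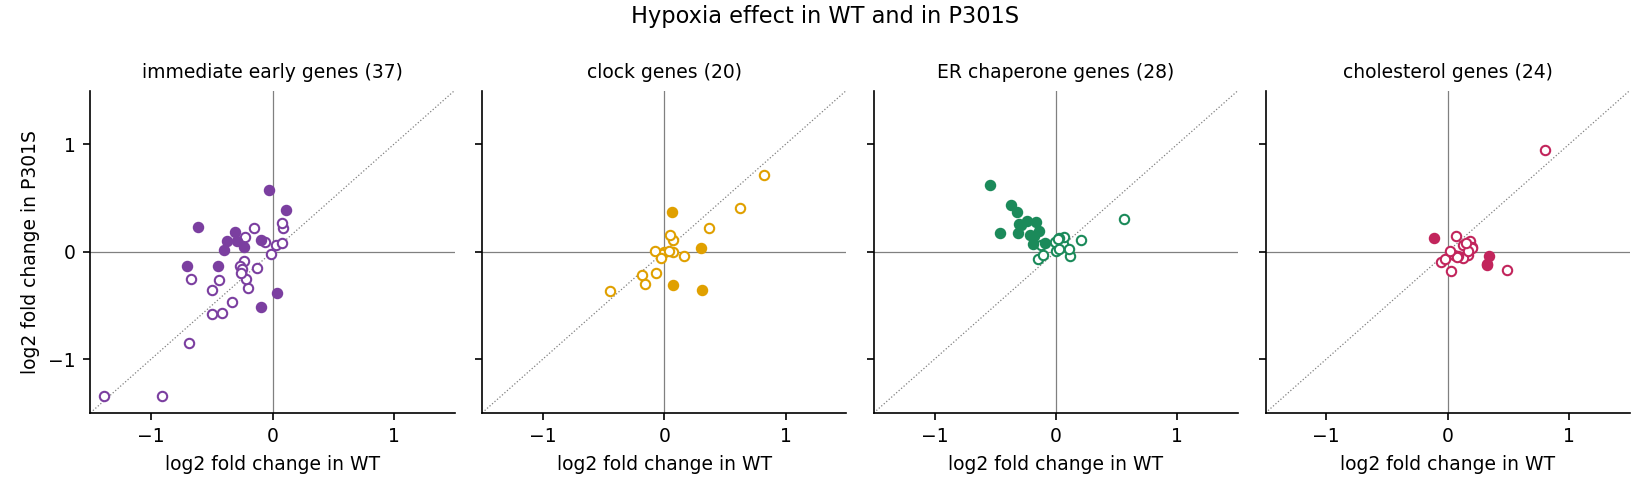
Each point is a measured member of 1 of 4 lists, with its log2 fold change for hypoxia in WT on the x axis and in P301S on the y axis, and the dotted line marks equal effects. Filled points have an unadjusted p below 0.05 for the difference between the genotypes, which holds for 13 immediate early genes, 4 clock genes, 14 ER chaperone genes and 4 cholesterol genes. Over all genes it holds for 9.43%.

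Ptgs2 (cyclooxygenase 2, the inducible enzyme of prostaglandin synthesis) and Fam107a, a stress-responsive actin-binding protein gene, were called for the difference as well. Ptgs2 ran from 17.9 to 21.9 CPM (median 20.3) in WT normoxia and from 14.9 to 23.6 CPM (median 20.5) in WT hypoxia (log2 fold change −0.01, SE 0.098, adjusted p = 0.984), while P301S libraries ran from 14 to 20.8 and from 27.8 to 34 CPM. The difference was 0.78 (adjusted p = 0.0407), and the sign of the near-zero WT value turned under some alternatives. Fam107a ran from 373 to 432 CPM (median 382) in WT normoxia and from 319 to 397 CPM (median 343) in WT hypoxia (log2 fold change −0.17, SE 0.0675, adjusted p = 0.312), with a difference of 0.56 (adjusted p = 0.0407).

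Cytosolic heat shock genes had smaller shifts. Of 25 measured members 22 had a log2 fold change below 0, 5 were lower and 1 was higher at an unadjusted p below 0.05, and the median was −0.07. edgeR and limma voom called 0 of them and DESeq2 called 1, and 3 were lower with the 6 libraries low in choroid plexus markers left out. Cryab, the small heat shock protein alpha B-crystallin of glia, ran from 56.2 to 88.1 CPM (median 79.8) in normoxia and from 54.8 to 70.6 CPM (median 58.1) in hypoxia (log2 fold change −0.36, SE 0.0932, adjusted p = 0.122). The ranges overlapped, since 1 normoxia library lay as low as the hypoxia libraries. The co-chaperone genes Bag3, Dnajb1 and Dnajb5 had −0.23, −0.23 and −0.21 (adjusted p = 0.226, 0.246 and 0.269). The member higher at that p was Fkbp5, a glucocorticoid-induced co-chaperone (0.27, SE 0.0849, adjusted p = 0.193).

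Genes of cholesterol synthesis and uptake had higher levels in WT hypoxia, again without a called member. Of 24 measured, 21 had a log2 fold change above 0 (51.4% of all genes), 10 were higher and 0 lower at an unadjusted p below 0.05, and the median was 0.14. edgeR and limma voom called 0 and DESeq2 called 1. Their mean log2 level relative to WT normoxia ran from −0.08 to 0.05 over the normoxia libraries and from 0.08 to 0.23 over the hypoxia libraries, which did not overlap. Their summed level, which weights abundant members more, did overlap, at 1117 to 1155 CPM (median 1132) in normoxia and 1123 to 1315 CPM (median 1237) in hypoxia. With the 6 libraries left out 9 were higher (median 0.13), and over all alternatives the count ran from 8 to 13.

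Stard4, which carries cholesterol between membranes, ran from 18 to 23.4 CPM (median 20.5) in normoxia and from 21.9 to 28.9 CPM (median 27.8) in hypoxia, with a log2 fold change of 0.34 (SE 0.0776, adjusted p = 0.0882). Insig1, the ER anchor that holds back the SREBP activator of the pathway and is itself an SREBP target, ran from 33.7 to 46.5 CPM (median 44.3) and from 47.6 to 60.8 CPM (median 53.2). It was the member whose groups did not overlap (log2 fold change 0.32, SE 0.1, adjusted p = 0.193). Among the enzymes, Fdft1 (squalene synthase) had 0.20 (SE 0.0594, adjusted p = 0.164) and Sqle (squalene epoxidase) 0.20 (SE 0.0647, adjusted p = 0.219). In P301S the median was −0.03, and the difference between the genotypes had an unadjusted p below 0.05 for 4 members, 3 of them with the lower effect in P301S and none called. Over all genes 9.43% reached that p for the difference.

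**Figure D4:**
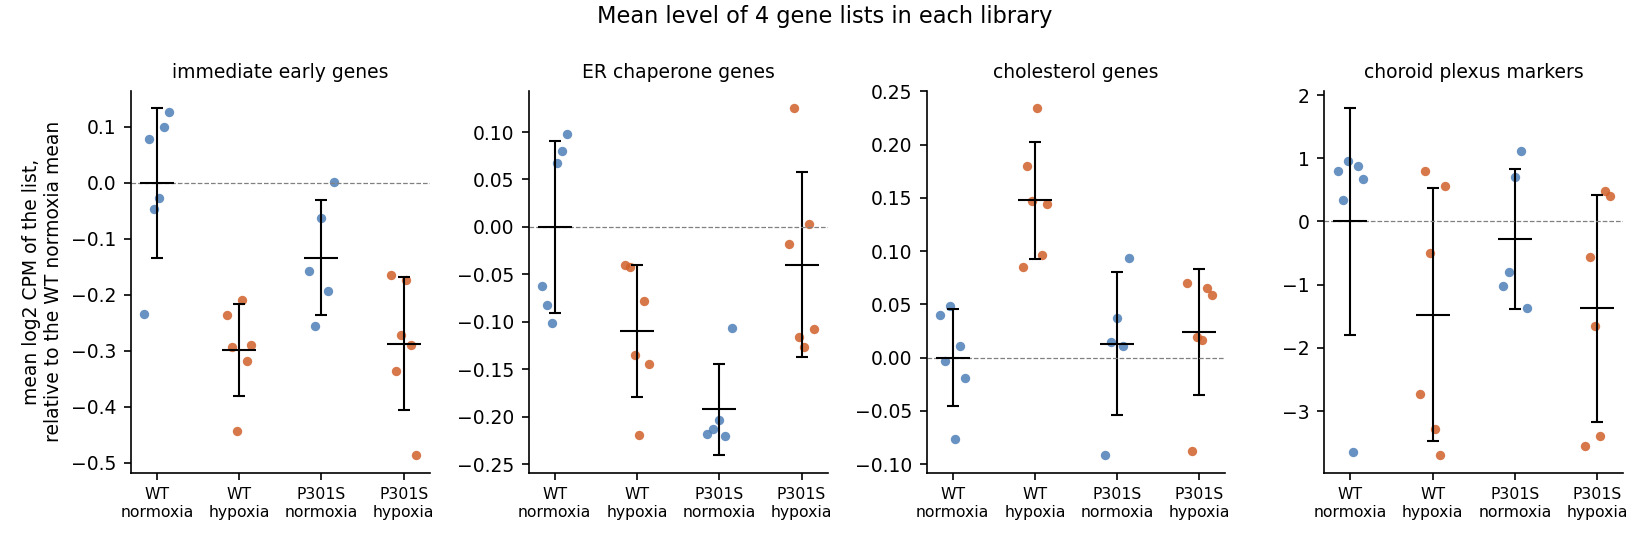
Each point is 1 library, placed by the mean log2 CPM of a list relative to the mean of WT normoxia, and bars give the mean and SD of each of the 4 groups. In WT, the mean log2 level of cholesterol genes separated hypoxia from normoxia, ER chaperone and immediate early genes overlapped at their edges, and choroid plexus markers varied more within each group than between them.

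Textbook HIF targets did not shift as a group. Of 19 measured HIF targets of glycolysis, 1 was higher and 1 lower at an unadjusted p below 0.05, with a median of 0.01, and edgeR, limma voom and DESeq2 called 0. Ldha, the lactate dehydrogenase gene, ran from 162 to 206 CPM (median 193) in normoxia and from 183 to 214 CPM (median 198) in hypoxia (log2 fold change 0.06, SE 0.0682, adjusted p = 0.759). Slc2a1, the glucose transporter GLUT1 of brain vessels, ran from 21.2 to 26 CPM (median 23.5) and from 25.2 to 36.4 CPM (median 27.6). The ranges overlapped by less than 1 CPM (log2 fold change 0.29, SE 0.0863, adjusted p = 0.173). Pdk1, which diverts pyruvate from mitochondria, had −0.12 (SE 0.0527, adjusted p = 0.39).

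Of 27 measured HIF targets outside glycolysis, 1 was higher and 3 were lower at an unadjusted p below 0.05, with a median of 0.00. edgeR and limma voom called 0 and DESeq2 called 1. Vegfa, the vessel growth factor gene, ran from 81.5 to 88.3 CPM (median 84.9) in normoxia and from 71.6 to 91.5 CPM (median 78.4) in hypoxia (log2 fold change −0.09, SE 0.0585, adjusted p = 0.557). Tfrc, the transferrin receptor that takes up iron, ran from 72.4 to 103 CPM (median 86.8) and from 98.9 to 122 CPM (median 102), with a log2 fold change of 0.26 (SE 0.0649, adjusted p = 0.116). P4ha1, a collagen prolyl hydroxylase subunit, had −0.22 (SE 0.0723, adjusted p = 0.22), Apln, a vasoactive peptide gene, −0.38 (SE 0.113, adjusted p = 0.173) and Car12, a carbonic anhydrase gene, −0.67 (SE 0.235, adjusted p = 0.257). Car12 was lowest, at 43.7 to 62.4 CPM, in the 3 hypoxia libraries that were low in choroid plexus markers, and without the 6 such libraries its value was −0.29. Ldha and Vegfa were picked after their values were seen.

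The core ACGTGC was present upstream of 9 of 20 HIF targets outside glycolysis (45%) and of 6 of 19 of glycolysis (31.6%), beside the 7.66% of all. It is printed in capitals for Tfrc and P4ha1, which had values of opposite sign while both hold it.
Tfrc chr16:32608872-32608929 plus strand: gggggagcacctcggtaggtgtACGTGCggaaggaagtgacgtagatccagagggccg
P4ha1 chr10:59323249-59323295 plus strand: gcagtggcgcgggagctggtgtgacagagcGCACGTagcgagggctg
In P4ha1 the core is read on the opposite strand, as GCACGT.

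Among the HIF subunits and oxygen sensors, 10 were measured, 1 was higher and 1 lower at an unadjusted p below 0.05, and the median was −0.03. No member was called by edgeR, limma voom or DESeq2. Hif3a, whose products include inhibitors of the other HIF subunits, ran from 3.75 to 10.8 CPM (median 4.56) in normoxia and from 6.24 to 27.4 CPM (median 10.9) in hypoxia. The highest value was that of WT hypoxia replicate 6, and the ranges overlapped (log2 fold change 1.13, SE 0.342, adjusted p = 0.189). In P301S Hif3a rose by 1.66 (adjusted p = 0.0439), with a difference of 0.53 (unadjusted p = 0.292). Hif1an, which encodes the asparagine hydroxylase that blocks HIF, had −0.13 (SE 0.061, adjusted p = 0.412). Hif1a itself lies wholly under another gene and was not tested.

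Hif3a is also a glucocorticoid-induced gene. Of 17 measured genes of that list 4 were higher and 2 lower at an unadjusted p below 0.05, with a median of −0.02. edgeR and limma voom called 0 and DESeq2 called 1, lower. Plin4, a lipid droplet coat gene, had a log2 fold change of 0.84 (SE 0.298, adjusted p = 0.259) and was highest, at 28.2 CPM, in WT hypoxia replicate 6, while the other hypoxia libraries ran up to 12.9 CPM. Klf9, a transcription factor gene, had 0.17 (SE 0.0652, adjusted p = 0.291). Pdk4, which like PDK1 restrains pyruvate use, ran from 12.2 to 15.5 CPM (median 13.5) in normoxia and from 8.94 to 11.1 CPM (median 10.2) in hypoxia, without overlap (log2 fold change −0.41, SE 0.113, adjusted p = 0.145).

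The purine genes showed 1 member apart. Xdh encodes the xanthine dehydrogenase that forms urate in purine breakdown and can turn into a producer of reactive oxygen. Its levels ran from 3.06 to 5.7 CPM (median 4.77) in normoxia and from 6.05 to 11.4 CPM (median 8.23) in hypoxia. The groups did not overlap, and the log2 fold change was 0.92 (SE 0.201, adjusted p = 0.0824). In P301S Xdh rose by 1.21 (adjusted p = 0.0109), with a difference between the genotypes of 0.29 (unadjusted p = 0.322). Of 15 measured genes of purine breakdown, salvage and adenosine signalling, 3 were higher and 0 lower at an unadjusted p below 0.05, and the median was 0.01. edgeR and limma voom called 0 and DESeq2 called 1, higher. The adenosine-forming enzyme gene Nt5e had 0.31 (SE 0.128, adjusted p = 0.327) and the receptor gene Adora2a 0.67 (SE 0.278, adjusted p = 0.339), with its highest value, 4.39 CPM, in WT hypoxia replicate 2.

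Several other genes came close to a call. Tnik, a kinase gene of the postsynaptic density, had a log2 fold change of 0.21 (SE 0.0443) and Ppm1l, a phosphatase gene, 0.27 (SE 0.0566), each with an adjusted p of 0.0682, as had Atad5, which unloads the PCNA clamp from DNA, at 0.36. Cyp4x1, a cytochrome P450 gene, had 0.45 (adjusted p = 0.0688), Gpcpd1, a phosphodiesterase gene of choline metabolism, 0.35 and Rtl3, a gene derived from a retrotransposon, 0.88 (adjusted p = 0.0824 each), and the syntaxin gene Stx3 had 0.24 (adjusted p = 0.0882). With lower levels, Dok3, an adaptor gene of immune cells, had −0.55 (adjusted p = 0.083). Rnaset2a and Zfp933 had −0.45 and −0.86 (adjusted p = 0.0682 each), and both belong to families with near-identical copies, between which reads can be split.

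Synaptic release genes shifted little. Of 26 measured presynaptic genes 5 were higher and 0 lower at an unadjusted p below 0.05, with a median of 0.03, and edgeR, limma voom and DESeq2 called 0. The count higher was 2 without WT hypoxia replicate 5 and 3 without WT normoxia replicate 3 or WT hypoxia replicate 6. Rims2, which tethers vesicles at the active zone, ran from 62.8 to 78.5 CPM (median 71.3) in normoxia and from 71.8 to 100 CPM (median 83.9) in hypoxia (log2 fold change 0.25, SE 0.0736, adjusted p = 0.162). Syn3 had 0.22 and Vamp1 0.17 (adjusted p = 0.249 and 0.297). Syt2, the calcium sensor of fast-spiking interneurons, had 0.62 (SE 0.268, adjusted p = 0.372) and its highest value, 118 CPM, in WT hypoxia replicate 1. Without the 6 libraries low in choroid plexus markers, that replicate among them, 0 of the 26 were higher at that p and Syt2 had 0.01.

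Neuropeptide genes had a median of 0.14, with 5 of 17 higher and 1 lower at an unadjusted p below 0.05 and 0 called by edgeR, limma voom or DESeq2. The count higher was 2 without WT hypoxia replicate 2 (median 0.08) and 3 without WT normoxia replicate 1 or 6 or WT hypoxia replicate 6. Trh had the highest log2 fold change of the list, 2.57 (SE 0.931, adjusted p = 0.269), but this rested on WT hypoxia replicate 6 at 13.4 CPM, while the other 11 WT libraries ran up to 0.984 CPM. Penk (enkephalin) ran from 14.7 to 23.7 CPM (median 18.9) in normoxia and from 16.2 to 34.4 CPM (median 24.7) in hypoxia (log2 fold change 0.41, SE 0.162, adjusted p = 0.302). Crhbp, which binds corticotropin-releasing hormone, had 0.34 (SE 0.132, adjusted p = 0.299), Cort 0.48 and Tac1 0.44 (adjusted p = 0.342 and 0.353).

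Cell-type markers were read next to these groups, and in bulk tissue fewer cells of a type and less RNA per cell cannot be told apart. Of 15 measured interneuron markers 3 were higher and 1 was lower at an unadjusted p below 0.05 (median 0.10), with 0 called by edgeR and limma voom and 1, higher, by DESeq2. Reln, the reelin gene of stratum lacunosum interneurons, ran from 69.3 to 79 CPM (median 71.9) in normoxia and from 82.6 to 144 CPM (median 92.1) in hypoxia. The groups did not overlap (log2 fold change 0.45, SE 0.108, adjusted p = 0.0917). Pvalb, the marker of fast-spiking interneurons, ran from 17.1 to 24.4 CPM (median 21.5) in normoxia and from 21.2 to 72 CPM (median 25) in hypoxia (log2 fold change 0.61, SE 0.235, adjusted p = 0.301). The highest values of Reln, Pvalb and Calb1 (218 CPM) were all in WT hypoxia replicate 1, and without the 6 libraries low in choroid plexus markers Pvalb had 0.07, Reln had 0.32 and 1 marker of the list was higher at that p.

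Of 14 dentate granule cell markers 4 were higher and 2 lower at an unadjusted p below 0.05, with a median of 0.04. These values rested on single libraries: 1 was higher without WT hypoxia replicate 1, 2 were higher without WT hypoxia replicate 3 (median −0.02), and 0 were lower without WT normoxia replicate 4 and 1 without WT hypoxia replicate 2, 3, 4 or 5. edgeR and limma voom called 0 and DESeq2 called 1, higher. Pdzd2 ran from 68.8 to 98.4 CPM (median 85.7) in normoxia and from 98.5 to 116 CPM (median 103) in hypoxia, the extremes of the groups lying 0.1 CPM apart (log2 fold change 0.33, SE 0.0817, adjusted p = 0.109). Calb1 (calbindin) had 0.43 (SE 0.166, adjusted p = 0.301) and C1ql2, a synaptic organiser of mossy fibres, −0.40 (SE 0.16, adjusted p = 0.319). Markers of this cell type lay on both sides of 0.

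All 17 myelin and oligodendrocyte markers had a log2 fold change below 0, with a median of −0.14, but 0 were called by edgeR, limma voom or DESeq2 and 1 was lower at an unadjusted p below 0.05. That was Sox10, the lineage transcription factor gene, with −0.26 (SE 0.105, adjusted p = 0.33). Mbp, which encodes myelin basic protein, ran from 1497 to 2511 CPM (median 2237) in normoxia and from 1856 to 2192 CPM (median 2060) in hypoxia. Its lowest value in normoxia was that of replicate 4, and without that library 12 of the 17 markers were lower at an unadjusted p below 0.05, with a median of −0.23. With the 6 libraries low in choroid plexus markers left out 8 were. Mbp and Ttr were picked after their values were seen.

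Endothelial markers lay on both sides of 0, with 3 of 17 higher and 2 lower at an unadjusted p below 0.05 (median 0.10) and 0 called by edgeR, limma voom or DESeq2. With the 6 libraries low in choroid plexus markers left out 1 was higher and 1 lower. Abcb1a, the drug efflux pump of the blood-brain barrier, had 0.29 (SE 0.0941, adjusted p = 0.211) and Slco1a4, a transporter gene, 0.24 (SE 0.0943, adjusted p = 0.311). Cldn5, the tight junction claudin of brain vessels, had −0.40 (SE 0.144, adjusted p = 0.267), and Tek, the angiopoietin receptor gene, −0.33 (SE 0.132, adjusted p = 0.316).

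All 15 choroid plexus and all 14 ependymal markers had a log2 fold change below 0 (medians −0.92 and −0.32), with 0 at an unadjusted p below 0.05 in either list and 0 called by edgeR, limma voom or DESeq2. Without WT normoxia replicate 4, the library of that group low in these markers, 2 choroid plexus markers (median −1.16) and 5 ependymal markers (median −0.51) were lower at that p. Without WT hypoxia replicate 2 the counts were 1 (median −1.48) and 2 (median −0.44), without WT hypoxia replicate 3 they were 0 and 1, and without WT hypoxia replicate 6 they were 1 and 0. The summed choroid plexus markers ran from 264.5 to 5517 CPM (median 4843) in normoxia and from 308.8 to 4733 CPM (median 1238) in hypoxia, so each group covered nearly the whole range. Ttr had a log2 fold change of −1.16 with an SE of 1.05. When the score entered the model as a covariate, 20 immediate early genes and 12 ER genes were lower and 10 cholesterol genes were higher at an unadjusted p below 0.05. The part of tissue composition in the results of single genes was not tested further.

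**Figure D5:**
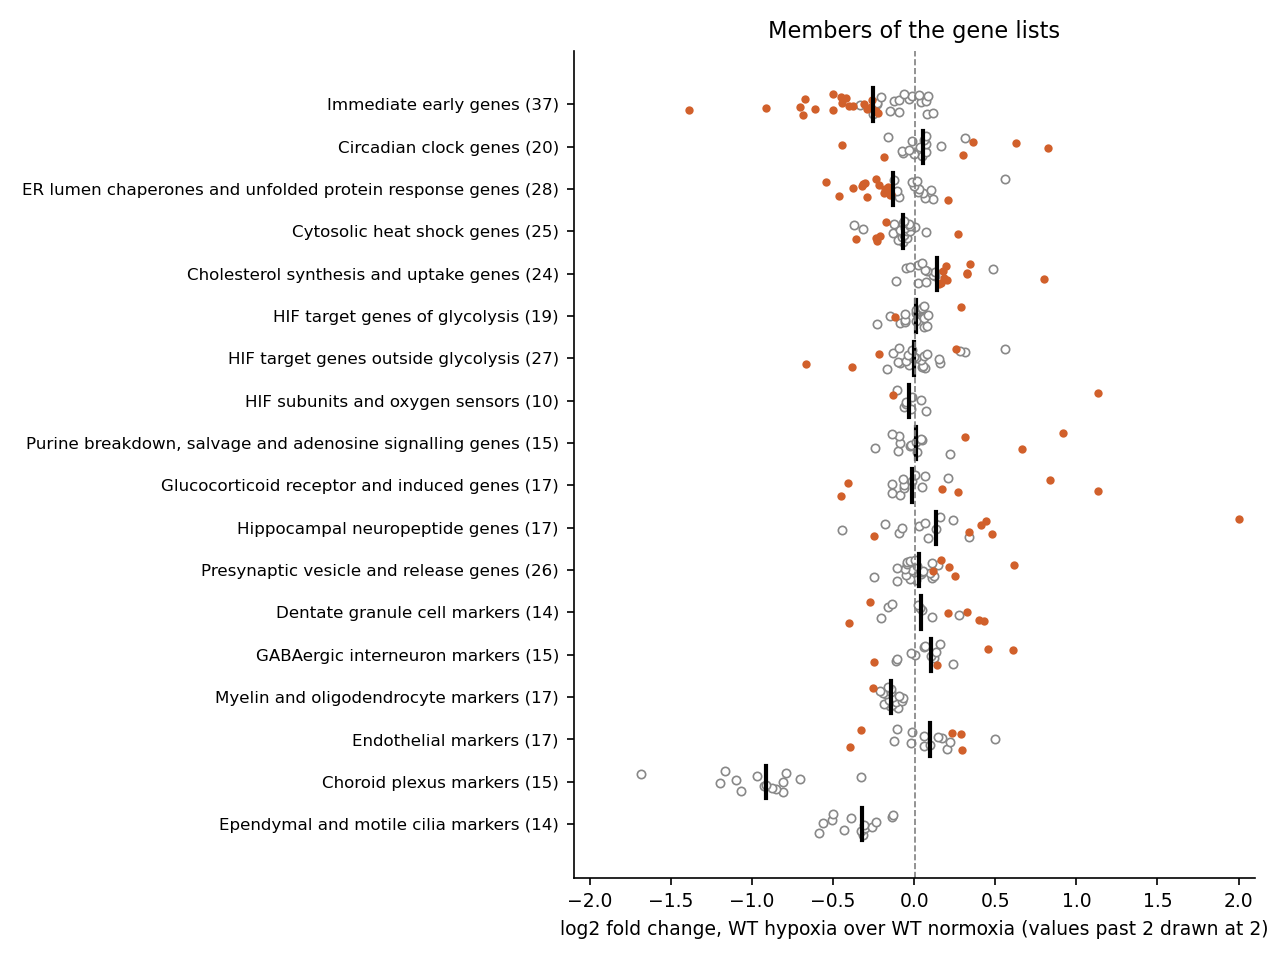
For each list, with its number of measured members in brackets, each point is a gene at its log2 fold change (WT hypoxia over WT normoxia, values past 2 drawn at 2), filled where the unadjusted p is below 0.05, and the black bar is the list's median. The medians of immediate early genes (−0.25), ER chaperones (−0.13) and myelin markers (−0.14) lie left of the dashed median of all genes. Those of choroid plexus (−0.92) and ependymal markers (−0.32) lie farther left. Cholesterol and neuropeptide genes (0.14 each) have medians right of it.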

How the data were processed

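Whole-hippocampus mRNA was sequenced as stranded paired-end libraries, per the labels. The authors deposited raw gene counts, produced per the file headers with featureCounts 1.6.2 over whole genes of Ensembl release 90 (introns included, no strand setting) from duplicate-removed alignments. The submitters' processing notes name HISAT2, mm10 and DESeq2 1.6.3. By default featureCounts discards reads lying in several genes, and 48.1% of tested genes overlap another, and reads of a gene and its antisense partner cannot be told apart.

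Genes were kept by filterByExpr (minimum count 10; 0.0539% to 0.0881% of the counts of WT libraries were lost), and libraries were scaled by TMM. Rows without a symbol held 0.0277% to 0.0356% of a library. One edgeR 4.0.16 quasi-likelihood model (R 4.3.3, limma 3.58.1) took all 23 libraries in 4 groups, and hypoxia was tested in WT, in P301S and for the difference, two-sided, with Benjamini-Hochberg adjustment over 17788 genes and calls at 0.05. The SE is the fold change over the square root of its F statistic. CPM are TMM-scaled. The procedure was tested on simulated counts, drawn independently for each gene and library. They held no pattern of choroid plexus tissue or title number, so they cannot show how the calls behave under such patterns. DESeq2 1.42.0, limma voom and other settings were alternatives.

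The comparison, the gene lists and their members were chosen with earlier results of these data known, so list counts are descriptions. Of 731 distinct list genes 679 were tested. Named genes are all called genes, the 8 higher and 8 lower uncalled genes with the lowest p (mean of at least 1 CPM, no predicted name), from each list described the 5 lowest p-values, genes called for the difference, and Mapt. Others are said to be picked after their values were seen. Some genes that the rule names are not reported here. No pair of WT replicates was alike within counting noise (lowest chi-square over its degrees of freedom 7.43), and each library counted as 1 replicate. Gene coordinates are those of the count files. Promoters and microRNAs are from RefSeq (GRCm38.p6).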

Additional observations from a re-analysis of the deposited data

Results flagged for a closer look

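Among 32 groups of values tested for a library far from the others, 2 had one, and chance flags about 1 in 20 such groups. Mindy4b-ps had its highest WT hypoxia library at 1.09 CPM, apart from the other 5. The choroid plexus score of WT normoxia had its lowest library, replicate 4, at −2.84, while the median of the group was 1.54.

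The hypoxia effect differed between P301S and WT, by the test of the difference itself (edgeR, adjusted p below 0.05), for 7 genes, and the log2 difference (P301S minus WT) was 0.78 for Ptgs2, 0.81 for Hspa5, 0.53 for Calr, 0.56 for Fam107a, 2.02 for Akr1e1, −2.30 for Mybpc2 and −4.42 for H2-Q2. Mybpc2, a muscle myosin-binding protein gene, was at or below 0.666 CPM in all libraries, and H2-Q2, an MHC class I gene with near-identical neighbours between which reads can be split, was at or below 0.947 CPM. In WT, Mybpc2 ran from 0.0406 to 0.372 CPM (median 0.166) in normoxia and from 0.31 to 0.572 CPM (median 0.437) in hypoxia, and H2-Q2 from 0 to 0.124 and from 0.04 to 0.588 CPM. Without the 6 libraries low in choroid plexus markers none of the 7 was called by edgeR (values from −5.25 for H2-Q2 to 1.67 for Akr1e1).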

How the results depend on the processing

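The number of genes called for hypoxia in WT was 13, and it was 4 with the WT libraries alone, 151 with DESeq2, 86 with limma voom and the title number as a random effect (its consensus correlation was −0.0476), 4 with no filter on low counts, 20 with the length and GC trend removed (17746 genes) and 0 without the 6 libraries lowest in choroid plexus markers. It ran from 2 to 29 when 1 WT library was left out. For hypoxia in P301S it was 73, and 363 with DESeq2, 38 with no filter, 190 with the length and GC trend removed, 46 with choroid plexus score as covariate, 45 without the 6 libraries and 7 to 154 with 1 library left out (lowest without P301S normoxia replicate 3, highest without P301S normoxia replicate 1). For the difference it was 7, and 52 with DESeq2, 0 with limma voom, 4 with no filter, 0 with a mean of at least 1 CPM, 0 with the length and GC trend removed, 13 with the covariate, 0 without the 6 libraries, 0 with edgeR's older quasi-likelihood estimate (added after seeing the data) and 0 to 13 with 1 library left out. The cause was not tested. Of 3236 values of single genes under an alternative, 10 changed sign, all at genes near 0 in WT: Ptgs2 (0.035 without the 6 libraries and, without 1 library, from −0.063 to 0.065), Entpd1 (0.0046 without the 6 libraries) and Mapt (−0.028 with the covariate, −0.011 without the 6 libraries and, without 1 library, from −0.0026 to 0.038). Another 305 lost and 87 gained a call, and 2834 kept both. No paired analysis was possible because the replicate numbers were given in accession order and the title numbers do not occur in both conditions. Mindy4b-ps, Mybpc2 and H2-Q2 rest on about 1 CPM or less.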

Other observations

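Of 26 measured genes of tau kinases, phosphatases and tau itself, 1 was higher and 1 lower at an unadjusted p below 0.05 (median 0.01), of 26 nuclear genes of oxidative phosphorylation 1 and 1 (median 0.02), and of 26 cytosolic ribosomal protein genes 1 and 0 (median 0.05). Among 13 of 24 cytokine and NF-kB response genes with enough counts, 0 were higher or lower at that p and 0 were called by edgeR. Homeostatic microglia markers had 1 lower of 14 (median −0.05) and astrocyte markers 3 lower of 15 (median 0.00). All 15 mural cell markers had a log2 fold change above 0, 2 of them higher at that p (median 0.15), and thalamus and habenula markers, from tissue next to the dissection, had 2 higher of 14 (median 0.18), with summed levels of 185 to 372 CPM in normoxia and 219 to 470 CPM in hypoxia.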
